A study of Caenorhabditis elegans with 9 samples.

Results

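On the X chromosome of Caenorhabditis elegans, 201 genes with a clear signal in wild-type embryos did not have a higher mean signal in embryos with an sdc-2 mutation and sdc-2 RNAi, although most X-linked genes did. They were chosen by measured values. Of 2355 X-linked genes read by a probe set of their own gene, 1163 had a mean of at least 7.0 on the deposited log2 scale over the wild-type arrays. Of those 1163 genes, 201 (17.3%) had a mean over the sdc-2 arrays at or below the wild-type mean. Each gene was read by its brightest probe set, and 17085 genes were measured in all. The 201 genes comprised 198 protein-coding genes, 2 pseudogenes and 1 non-coding RNA gene. Because the sdc-2 difference chose them, it is described below and not tested.

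Total RNA of mixed-stage embryos was hybridised to 9 arrays, 3 in each of 3 groups of XX animals. Wild-type (WT) embryos came from N2 mothers raised for about 96 hours on L4440 bacteria, which hold an RNAi vector without insert. N2 mothers fed double-stranded RNA against smo-1 gave the smo-1 RNAi embryos, and the sdc-2(y93)+RNAi embryos were those of mothers that carried the sdc-2 allele y93 and were fed sdc-2 RNAi. In both these groups RNAi feeding lasted 72 hours and followed 24 hours of growth on HB101, and all cultures were kept at 20 °C. The length of the RNAi feeding therefore went with the group and cannot be told apart from it. The growth protocol names a feeding plasmid for smo-1 only. The labels do not say whether replicates were grown separately, so the p-values rest on a spread between arrays that may be technical. With so few arrays, every value has limited precision. In RNA of whole embryos, fewer cells of a type and less RNA per cell cannot be told apart.

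In XX worms the dosage compensation complex binds both X chromosomes and lowers their transcription to the level of XO males. SDC-2 brings the complex to X and also represses her-1, a male-determining gene. Loss of SDC-2 therefore raises many X-linked transcripts, and X-linked genes that do not follow have been called uncompensated. SMO-1 is the small ubiquitin-like modifier SUMO, which is attached to many nuclear proteins, subunits of the dosage compensation complex among them.

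The messengers of smo-1 and her-1 were read as a check of the labels, and that of sdc-2, a member of the set, is given further on. The smo-1 signal was 11.96, 11.79 and 12.04 on the WT arrays, 7.91, 8.21 and 8.66 on the smo-1 RNAi arrays and 10.96, 10.74 and 10.94 on the sdc-2(y93)+RNAi arrays, so it was lower in the third group as well. The her-1 signal averaged 7.31 in WT, 7.63 in smo-1 RNAi and 9.79 in sdc-2(y93)+RNAi embryos. Array medians over all probe sets lay between 6.51 and 6.72. Correlations between arrays of a group were 0.984 to 0.997, the lowest of them within the sdc-2(y93)+RNAi group, whose replicate 2 gave lower values for the 201 genes than its replicates 1 and 3. Hybridisation control transcripts, which are bacterial and phage sequences meant for addition to the labelled sample, were at background on the WT and smo-1 RNAi arrays and bright on the sdc-2(y93)+RNAi arrays. Control probe sets that compare the 3′ and 5′ ends of actin gave a mean 3′ excess of 0.86 (log2) in WT, 1.51 in smo-1 RNAi and 1.66 in sdc-2(y93)+RNAi embryos. These features went with the groups, and their part in the results was not tested. Markers of adult tissue were at low signal: all 24 measured sperm genes and all 5 measured yolk protein genes lay below 7.0 in WT.

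Among the 201 genes the sdc-2(y93)+RNAi mean was below the WT mean by small amounts. The median difference was -0.17 (log2), the quartiles were -0.37 and -0.08, and the lowest value was -1.10. For 88 genes the difference was -0.2 or lower, for 26 it was -0.5 or lower, and for 3 it reached a 2-fold decrease. The other 962 X-linked genes with this signal had a median difference of 0.55. Autosomal genes with the same minimum signal had a median of -0.22, and 4455 of those 6509 (68.4%) met the same thresholds. All 3 sdc-2(y93)+RNAi arrays were below all 3 WT arrays for 71 of the 201 genes (35.3%). Over all 17085 genes that share was 21.0%, and nothing is read from the comparison, because the same difference chose the genes.

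**Figure D1:**
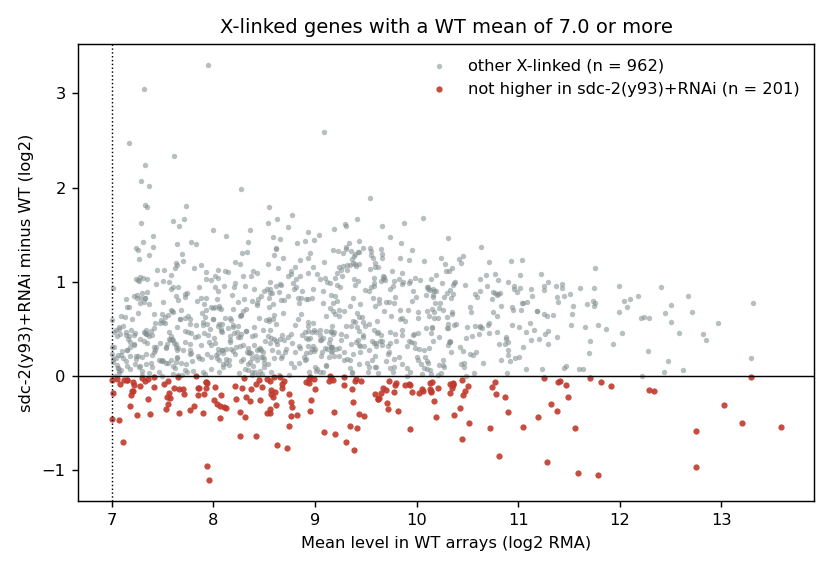
Each point is 1 of the 1163 X-linked genes with a WT mean of 7.0 or more (x axis, log2 RMA signal, mean of 3 arrays), placed by its sdc-2(y93)+RNAi mean minus WT mean (y axis, log2). The 201 genes at or below 0 (red) occur over the whole range of signal, and 63 of them lie within 0.1 of the line at 0.

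Many of the 201 genes lay close to the limit. The differences of 113 of them were within 0.2 of 0, as were those of 157 genes on the other side. The nearest genes inside were lin-18, C11H1.7 and W06D11.1 (-8e-05, -0.0028 and -0.0038), and the nearest outside were cdf-2, hch-1 and F40E10.5 (0.00056, 0.0011 and 0.0014). At the signal limit, zig-6, lin-32 and prx-3 had WT means of 7.0004, 7.005 and 7.012, and fax-1, pcyt-2.2 and idpp-5, just below it, had 6.9995, 6.983 and 6.982. The limit also depends on the scale. With each array centred on the median of autosomal genes at 7.0 or more, differences in the sdc-2(y93)+RNAi group moved up by 0.26 and 69 X-linked genes met the rule instead of 201.

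The rule was also applied with the arrays of 1 replicate number left out. Those arrays belong to the same groups and may be technical replicates, so the counts describe the choice and do not test it. When the rule was applied without replicate 1, 2 or 3 of both groups, it took 231, 174 and 210 genes, of which 192, 160 and 181 belonged to the 201. On the arrays left out, 138 (59.7%), 147 (84.5%) and 148 (70.5%) of the genes so chosen were at or below 0. Among all X-linked genes with the same minimum signal on the arrays kept, 14.7%, 26.6% and 16.7% were at or below 0 on the arrays left out. The medians of the chosen genes on the arrays left out were -0.05, -0.30 and -0.12. Without replicate 2 of sdc-2(y93)+RNAi alone, the rule took 178 genes, 169 of them among the 201.

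The genes were found at all signal levels and along the whole of X. They made up 17.4% of X-linked genes with a WT mean from 7 to 8, 18.0% from 8 to 9, 14.2% from 9 to 10, 17.7% from 10 to 11 and 21.8% at 11 or above. Among autosomal genes the shares at or below 0 in the same signal classes were 70.6%, 72.6%, 67.3%, 63.2% and 64.6%. When the X-linked genes with this signal were divided into 5 equal parts by their order along X in RefSeq, the share was 16.8%, 16.5%, 14.7%, 19.0% and 18.6% from the left end to the right.

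**Figure D2:**
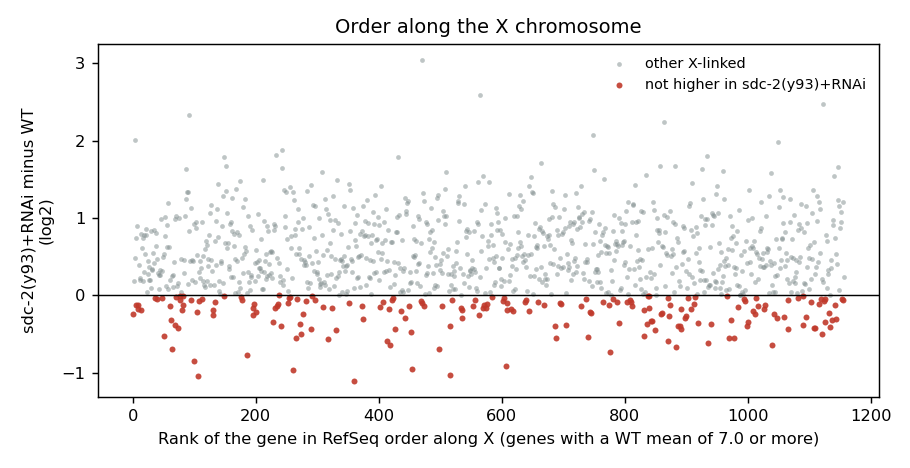
X-linked genes with a WT mean of 7.0 or more are ranked by their order along the X chromosome in RefSeq (x axis, rank) and plotted by their sdc-2(y93)+RNAi mean minus WT mean (y axis, log2). The genes at or below 0 (red) are scattered over the whole chromosome, with a share of 14.7% to 19.0% in each of 5 equal parts of the gene order.

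Some of these genes were neighbours. Of 572 pairs of adjacent protein-coding genes on X that both passed the signal limit, 20 pairs consisted of members of the set, 152 held 1 member and 400 held none. Members made up 17.3% of X-linked genes with this signal, so some such pairs arise from that share alone. Whether 20 pairs exceed it was not tested. The members formed 16 runs of 2 or 3 adjacent genes, with 36 genes in all. The longest runs held 3 genes each. They were tba-9, lbp-3 and lbp-1, then mec-7, ZK154.4 and ZK154.1, then scav-4, mff-1 and F11C1.1, and finally R04D3.2, R04D3.4 and R04D3.3. The R04D3 genes were all lower in smo-1 RNAi embryos, by -1.47, -1.21 and -1.19 (log2), and all passed the test described next. The probe sets used for them are of the kinds open to related transcripts, so their signals may not be separate. For R04D3.2 a second probe set, designed for 1 transcript and at 6.80 in WT, gave 1.08 in the sdc-2 contrast and -1.47 with smo-1 RNAi.

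Depletion of SUMO was read on arrays that the rule had not used, but the WT arrays serve on both sides. A WT mean that was high by array noise favours both membership and a lower call here. The other X-linked genes were kept for the reverse, which favours a higher call. Counts for the chosen sets are therefore descriptions. Of the 201 genes, 92 (45.8%) were lower and 34 (16.9%) were higher in smo-1 RNAi than in WT embryos, and 75 passed in neither direction (limma, Benjamini-Hochberg adjusted p under 0.05 over 17085 genes). Over all genes, 22.2% were called lower and 17.8% higher. Of autosomal genes with the same minimum signal, 46.4% were lower and 13.8% higher. Of the 4455 autosomal genes that met the same thresholds as the 201 genes, 55.2% were lower and 8.78% higher. Of the other 962 X-linked genes, 16.2% were lower and 43.1% higher. At least a 2-fold change was called for 21 of the 201 genes that were lower and 11 that were higher. The same held for 676 and 309 of the 6509 autosomal genes with this minimum signal. It held for 11 and 168 of the other 962 X-linked genes, and for 4.27% and 6.85% of all genes.

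The median difference between smo-1 RNAi and WT embryos was -0.26 for the 201 genes, 0.22 for the other X-linked genes, -0.31 for autosomal genes with the same minimum signal and -0.0022 for all genes. For the 4455 autosomal genes that met the same thresholds the median was -0.43. On the smo-1 RNAi arrays taken singly the median of the 201 genes minus their WT mean was -0.26, -0.22 and -0.32. The WT arrays gave -0.04, 0.01 and 0.02, but they make up that mean, so values near 0 were fixed in advance. When genes were chosen without 1 WT array and read against that array alone, the medians were -0.17, -0.28 and -0.21. By signal class the medians of the 201 genes were -0.03 from 7 to 8, -0.41 from 8 to 9, -0.31 from 9 to 10, -0.36 from 10 to 11 and -0.43 at 11 or above. Centring the arrays on autosomal genes at 7.0 or more moved every smo-1 RNAi difference up by 0.25. The calls then became 58 lower (28.9%) and 55 higher (27.4%), with 13.4% and 39.0% over all genes, and the median became -0.0054. The 34 genes called higher were all called higher again, 58 of the 92 called lower were called lower again, and none changed direction. Genes with a difference near -0.25 therefore have no settled direction.

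**Figure D3:**
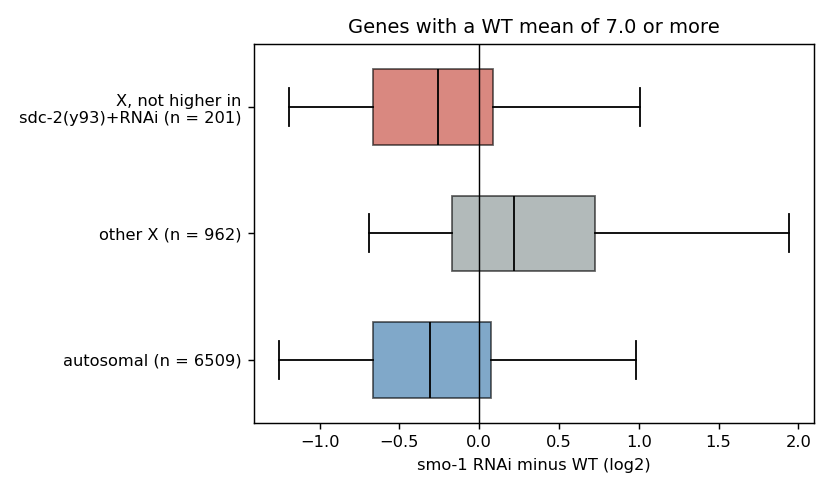
Boxes show the smo-1 RNAi mean minus WT mean (x axis, log2) for the 201 X-linked genes not higher in sdc-2(y93)+RNAi, the other 962 X-linked genes and 6509 autosomal genes, all with a WT mean of 7.0 or more. Boxes span the quartiles, lines mark medians of -0.26, 0.22 and -0.31, and whiskers span the 5th to 95th percentiles.

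The perturbed groups were also set directly against each other. The rule chose the 201 genes for low values on the sdc-2(y93)+RNAi arrays that enter here, and the remaining X-linked genes for high ones, so the counts are a description and support nothing. Of the 201 genes, 57 were lower and 48 higher with smo-1 RNAi than with sdc-2(y93)+RNAi, and 96 passed in neither direction (limma, adjusted p under 0.05). Over all genes 17.2% were lower and 18.4% higher. The median difference of the 201 genes was -0.05.

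To describe the genes by what they do, 75 of them were placed in 9 groups by known function, after their values had been seen, and 126 were left in none. The counts below describe these genes and carry no test of a group. They stand beside the shares given above for smo-1 RNAi, 22.2% lower and 17.8% higher over all genes and 45.8% lower and 16.9% higher over the 201, and for genes with all sdc-2(y93)+RNAi arrays below WT, 21.0% and 35.3%. Differences between sdc-2(y93)+RNAi and WT embryos are descriptions throughout.

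Both X-linked subunits of the dosage compensation machinery that were measured belonged to the set. The sdc-1 gene encodes a zinc-finger protein that acts with SDC-2. Its signal was 9.37, 9.17 and 9.59 in WT, 8.86, 9.02 and 8.85 in smo-1 RNAi and 9.30, 8.80 and 9.20 in sdc-2(y93)+RNAi embryos. The smo-1 RNAi arrays lay below all WT arrays, and the sdc-2(y93)+RNAi arrays overlapped with WT. With smo-1 RNAi, sdc-1 fell by 0.47 ± 0.15 (log2, SE, limma adjusted p = 0.025). The call was lost without WT replicate 1 or 3 or smo-1 RNAi replicate 1 or 3 (limma adjusted p = 0.064 to 0.11) and on the centred scale (limma adjusted p = 0.16). A second probe set for sdc-1 gave 0.60 in the sdc-2 contrast and -0.30 with smo-1 RNAi. For sdc-2 itself, the target of the RNAi, the brighter probe set gave 9.74, 9.60 and 9.80 in WT, 9.62, 9.31 and 9.86 in smo-1 RNAi and 9.09, 9.58 and 9.43 in sdc-2(y93)+RNAi embryos. All 3 sdc-2(y93)+RNAi arrays were below WT, by -0.35 on average, and the smo-1 RNAi arrays overlapped with WT. Its second probe set was lower in both groups, as given below. The X-linked signal elements sex-1, fox-1 and ceh-39, which count X chromosomes upstream of sdc-2, were not in the set, with sdc-2 differences of 0.49, 1.16 and 1.33.

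Chromatin genes added 5 further members. The linker histone gene his-24 was measured at 13.64, 13.45 and 13.68 in WT, 12.58, 12.42 and 12.24 in smo-1 RNAi and 12.98, 12.99 and 13.16 in sdc-2(y93)+RNAi embryos. Neither perturbed group overlapped with WT. In smo-1 RNAi embryos his-24 fell by 1.18 ± 0.11 (log2, SE, limma adjusted p = 1.2e-05), but its other probe set gave -0.10, as described below. The histone H4 gene his-38 was lower in sdc-2(y93)+RNAi embryos by -0.70, with no overlap, and its smo-1 RNAi difference of -0.42 did not pass (limma adjusted p = 0.052) but did without smo-1 RNAi replicate 2 or sdc-2(y93)+RNAi replicate 2 or 3. Histone genes are a multigene family, and the probe sets used for both are open to related transcripts. The synMuv B gene lin-15B, which represses germline genes in somatic cells, gave 9.53, 9.33 and 9.60 in WT, 9.67, 9.37 and 9.16 in smo-1 RNAi and 9.32, 8.85 and 9.01 in sdc-2(y93)+RNAi embryos, again with all sdc-2(y93)+RNAi arrays below WT. The gene taf-11.1, for a general transcription factor subunit, fell by 0.62 ± 0.11 in smo-1 RNAi embryos (log2, SE, limma adjusted p = 0.0013) and differed by -0.04 in sdc-2(y93)+RNAi embryos.

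Of 9 genes of the secretory and endocytic pathway, 7 were lower in smo-1 RNAi embryos, none was higher, and 6 had all sdc-2(y93)+RNAi arrays below WT. The medians were -0.75 for smo-1 RNAi and -0.52 for sdc-2(y93)+RNAi. On the centred scale 5 of the 9 remained lower. The gene hsp-3, for a chaperone of the endoplasmic reticulum related to BiP, gave 12.72, 12.64 and 12.89 in WT, 12.20, 11.89 and 11.84 in smo-1 RNAi and 12.17, 12.10 and 12.24 in sdc-2(y93)+RNAi embryos. Neither perturbed group reached the lowest WT array, and hsp-3 fell by 0.78 ± 0.11 with smo-1 RNAi (log2, SE, limma adjusted p = 0.00026). The gene pdi-2, for a protein disulfide isomerase that also serves collagen prolyl hydroxylation, gave 13.28, 13.06 and 13.29 in WT, 12.42, 12.38 and 12.16 in smo-1 RNAi and 12.84, 12.58 and 12.71 in sdc-2(y93)+RNAi embryos on its brighter probe set. Both groups again lay below WT on this probe set. Its other probe set disagreed in sign.

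Further secretory genes were lower in one or both groups. The gene txdc-12.2, named for its thioredoxin domain, was lower by -1.19 in smo-1 RNAi and -0.85 in sdc-2(y93)+RNAi embryos, with no overlap in either. The gene calu-1, for the calcium-binding protein calumenin, fell by 0.75 ± 0.11 with smo-1 RNAi (log2, SE, limma adjusted p = 0.00028), and sedl-1, the counterpart of a mammalian TRAPP vesicle-tethering subunit, fell by 1.07 ± 0.24 (limma adjusted p = 0.0041). Both overlapped with WT in sdc-2(y93)+RNAi embryos, at -0.15 and -0.42. The sorting nexin gene snx-1 showed the other pattern. It gave 7.10, 6.99 and 7.23 in WT, 7.05, 7.19 and 7.04 in smo-1 RNAi and 6.55, 6.03 and 6.66 in sdc-2(y93)+RNAi embryos, so only the sdc-2(y93)+RNAi arrays stood apart from WT.

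**Figure D4:**
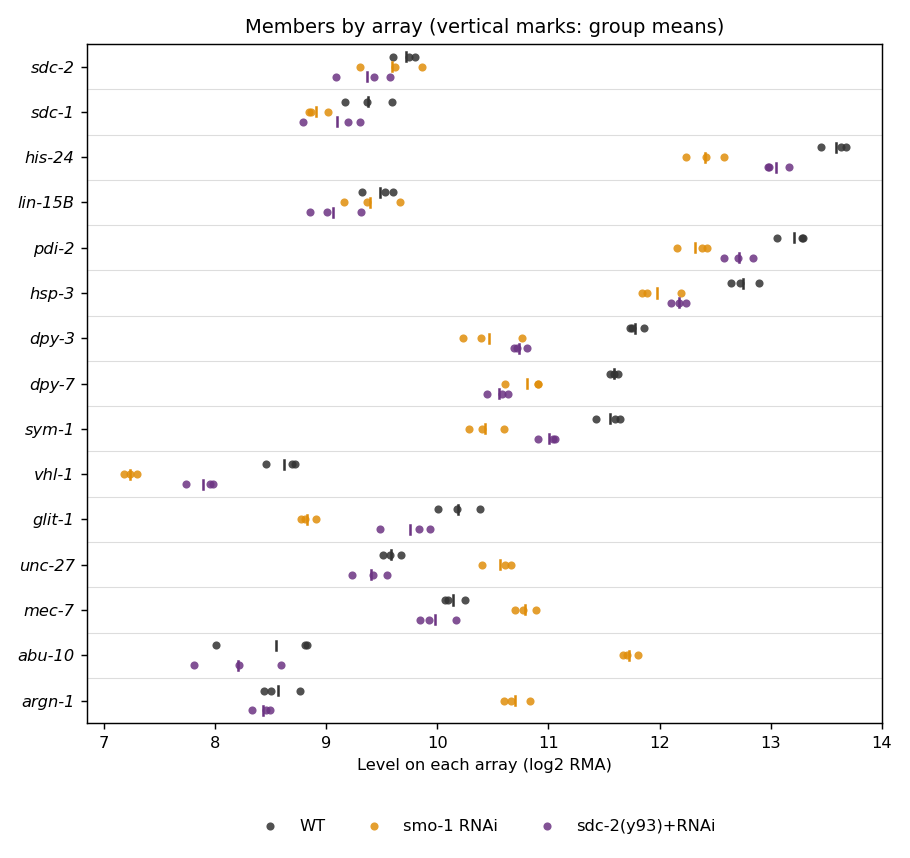
Each point is the log2 RMA signal (x axis) of 1 array for 15 of the 201 genes (rows), in WT (black), smo-1 RNAi (orange) and sdc-2(y93)+RNAi (purple), with 3 arrays in each group and vertical marks at the group means. For dpy-3, dpy-7, sym-1, his-24, pdi-2, hsp-3 and vhl-1 both perturbed groups lie below WT, and for unc-27, mec-7, abu-10 and argn-1 the smo-1 RNAi arrays alone lie above it.

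Collagens of the cuticle, the collagenous coat secreted by the epidermis, held several of the lowest values in sdc-2(y93)+RNAi embryos. The gene dpy-3, whose product shapes the furrows of the cuticle, gave 11.75, 11.86 and 11.74 in WT, 10.77, 10.23 and 10.40 in smo-1 RNAi and 10.81, 10.71 and 10.69 in sdc-2(y93)+RNAi embryos. For dpy-7, another furrow collagen, the values were 11.55, 11.63 and 11.59 in WT, 10.90, 10.91 and 10.61 in smo-1 RNAi and 10.58, 10.44 and 10.64 in sdc-2(y93)+RNAi embryos. Both genes lay below every WT array in both perturbed groups, with sdc-2 differences of -1.04 and -1.03. In smo-1 RNAi embryos dpy-3 fell by 1.32 ± 0.13 (log2, SE, limma adjusted p = 1.4e-05) and dpy-7 by 0.78 ± 0.10 (limma adjusted p = 0.00014). The collagen col-165 gave 12.75, 12.88 and 12.62 in WT, 12.27, 12.05 and 12.13 in smo-1 RNAi and 11.88, 11.64 and 11.84 in sdc-2(y93)+RNAi embryos, again without overlap, and col-172 differed by -0.95 in sdc-2(y93)+RNAi and -0.78 in smo-1 RNAi embryos.

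The remaining collagens did not move together. Of the 9 collagen genes, 4 were lower and 2 higher in smo-1 RNAi embryos, and 3 passed in neither direction. Those higher were col-41 (0.59 ± 0.21, log2, SE, limma adjusted p = 0.048) and col-174 (0.44 ± 0.14, limma adjusted p = 0.031), and each lost the call without any 1 of several arrays, col-41 without any 1 of the WT or smo-1 RNAi arrays or sdc-2(y93)+RNAi replicate 1, and col-174 without WT replicate 1 or 3 or any 1 of the smo-1 RNAi arrays. The pseudogene col-182, not counted among the 9, differed by 0.73 ± 0.20 (limma adjusted p = 0.012), a call that was lost without WT replicate 3. Autosomal collagens named col were also mostly at or below 0 in the sdc-2 contrast. Of 51 such genes with a WT mean of 7.0 or more, 48 were at or below 0 in sdc-2(y93)+RNAi embryos, with a median of -0.47, and on X it was 8 of 9 with a median of -0.14. The exception on X was col-177, at 0.12.

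All 5 other genes of the epidermis and its matrix were lower in smo-1 RNAi embryos, 2 of them also on the centred scale. The gene sym-1 encodes a secreted leucine-rich repeat protein that helps to attach body muscle to the epidermis. It gave 11.60, 11.43 and 11.65 in WT, 10.60, 10.28 and 10.40 in smo-1 RNAi and 11.06, 11.04 and 10.91 in sdc-2(y93)+RNAi embryos. Neither perturbed group overlapped with WT, and sym-1 fell by 1.13 ± 0.11 with smo-1 RNAi (log2, SE, limma adjusted p = 1.2e-05). A second, dim probe set for sym-1, at 6.07 in WT, gave -0.05 for smo-1 RNAi and 0.12 for sdc-2(y93)+RNAi embryos. The peroxidasin gene pxn-2, which acts in the extracellular matrix of the embryo, fell by 0.92 ± 0.16 in smo-1 RNAi embryos (log2, SE, limma adjusted p = 0.00076) and differed by -0.22 in sdc-2(y93)+RNAi embryos with overlap. The molting gene mlt-9, the hedgehog-related gene wrt-2 and mab-7, which acts in the male tail, had smo-1 RNAi differences of -0.43, -0.49 and -0.60 and sdc-2 differences of -0.18, -0.06 and -0.05. A second probe set for mab-7, designed for 1 transcript, gave -0.22 for smo-1 RNAi and 0.73 for sdc-2(y93)+RNAi embryos. That of mlt-9 gave -0.73 and -0.19. The calls of mlt-9, wrt-2 and mab-7 were each lost without WT replicate 2, and also without smo-1 RNAi replicate 2 for mlt-9 and mab-7 or replicate 3 for mlt-9 and wrt-2 (limma adjusted p = 0.051 to 0.086).

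Epidermal markers, autosomal genes included, were counted as well. Of 39 measured genes on a list of epidermal genes, 19 were lower and 2 higher in smo-1 RNAi embryos (22.2% and 17.8% over all genes), and 16 were lower and 10 higher in sdc-2(y93)+RNAi embryos at the same threshold. Over all genes the latter comparison called 15.6% lower and 10.9% higher. The mean signal of the list was 9.85 to 9.89 on the WT arrays, 9.50 to 9.67 on the smo-1 RNAi arrays and 9.72 to 9.88 on the sdc-2(y93)+RNAi arrays. The part of this list in the values of the X-linked collagens and matrix genes was not tested.

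Genes of mitochondria and metabolism were divided. Of 18, 7 were higher and 4 lower in smo-1 RNAi embryos. A pair of genes for proline synthesis, alh-13 and pycr-1, fell by 0.95 ± 0.10 (log2, SE, limma adjusted p = 3.4e-05) and 1.11 ± 0.12 (limma adjusted p = 2.7e-05). They differed by -0.24 and -0.52 in sdc-2(y93)+RNAi embryos, with all arrays below WT. The gene argn-1, for an arginase, gave 8.44, 8.76 and 8.51 in WT, 10.60, 10.84 and 10.66 in smo-1 RNAi and 8.33, 8.46 and 8.49 in sdc-2(y93)+RNAi embryos. The smo-1 RNAi arrays were far above the rest, by 4.37-fold over WT (limma adjusted p = 1.6e-07), and the sdc-2(y93)+RNAi arrays overlapped with WT. This probe set can bind related transcripts, and a second, dim probe set for argn-1 gave 0.21 (limma adjusted p = 0.14).

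The asparagine synthetase gene asns-2 lay on opposite sides of WT in the perturbed groups. It gave 11.22, 11.24 and 11.40 in WT, 11.53, 11.72 and 11.82 in smo-1 RNAi and 10.50, 10.25 and 10.38 in sdc-2(y93)+RNAi embryos. All smo-1 RNAi arrays were above WT (0.41 ± 0.11, log2, SE, limma adjusted p = 0.011) and all sdc-2(y93)+RNAi arrays below it, by -0.91. The tyrosine aminotransferase gene tatn-1 and the cytidine deaminase gene cdd-1 had the same order, with smo-1 RNAi differences of 0.93 and 0.51 and sdc-2 differences of -0.40 and -0.25. The nicotinamide nucleotide transhydrogenase gene nnt-1 gave 8.59, 8.27 and 8.41 in WT, 8.38, 8.24 and 8.39 in smo-1 RNAi and 7.98, 7.90 and 7.48 in sdc-2(y93)+RNAi embryos, so the sdc-2(y93)+RNAi arrays alone stood apart.

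Mitochondrial proteins behaved variously. In smo-1 RNAi embryos emre-1, for a regulator of the mitochondrial calcium uniporter, rose by 1.01 ± 0.14 (log2, SE, limma adjusted p = 0.00017) and the ATP synthase gene asb-2 by 0.28 ± 0.09 (limma adjusted p = 0.031). The asb-2 call was lost without any 1 of the WT arrays or without smo-1 RNAi replicate 2 or 3. The mitochondrial fission gene mff-1 fell by 0.65 ± 0.14 (limma adjusted p = 0.0028). For mff-1 the sdc-2 difference was -0.59, below WT on all arrays, while emre-1 and asb-2 differed by -0.14 and -0.04. The peroxisomal gene dhs-28, which acts in the beta-oxidation that makes ascaroside pheromones, rose by 0.68 ± 0.09 in smo-1 RNAi embryos (limma adjusted p = 0.00013).

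None of the 7 genes of muscle and actin was lower in smo-1 RNAi embryos, and 2 were higher. The troponin I gene unc-27 gave 9.51, 9.68 and 9.57 in WT, 10.41, 10.67 and 10.61 in smo-1 RNAi and 9.55, 9.23 and 9.42 in sdc-2(y93)+RNAi embryos. It rose in smo-1 RNAi embryos by 0.98 ± 0.11 (log2, SE, limma adjusted p = 4.3e-05) and overlapped with WT in sdc-2(y93)+RNAi embryos. The myosin light chain gene mlc-2 gave 12.99, 13.11 and 12.98 in WT, 13.44, 13.36 and 13.48 in smo-1 RNAi and 12.79, 12.52 and 12.86 in sdc-2(y93)+RNAi embryos. On this probe set the arrays did not overlap with WT in either group, above it in the former and below it in the latter. A second probe set for mlc-2 gave 0.66 for smo-1 RNAi and 0.046 for sdc-2(y93)+RNAi embryos. Both probe sets are open to related transcripts. The other troponin I gene tni-1, the splicing regulator sup-12, the cyclase-associated protein gene cas-1, the profilin gene pfn-2 and the myosin gene hum-4 did not pass, with differences from -0.30 to 0.11, and sup-12 passed as lower without smo-1 RNAi replicate 2. On the centred scale tni-1, cas-1 and pfn-2 were also called higher.

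Of 12 genes known from neurons and glia, 4 were higher and 4 lower in smo-1 RNAi embryos. The beta-tubulin gene mec-7 of the touch receptor neurons gave 10.10, 10.25 and 10.07 in WT, 10.70, 10.89 and 10.77 in smo-1 RNAi and 10.17, 9.92 and 9.85 in sdc-2(y93)+RNAi embryos. All smo-1 RNAi arrays were above WT (0.65 ± 0.11, log2, SE, limma adjusted p = 0.0006), and the sdc-2(y93)+RNAi arrays overlapped with WT. A second probe set for mec-7 gave 0.11 in the same comparison. The alpha-tubulin gene tba-9 differed by 0.45 ± 0.13 (limma adjusted p = 0.017), a call that was lost without WT replicate 1 or smo-1 RNAi replicate 1 or 2. The neuropeptide-like gene nlp-6 lay between 6.96 and 7.39 in WT, between 8.59 and 8.99 in smo-1 RNAi and between 6.76 and 7.31 in sdc-2(y93)+RNAi embryos. Its smo-1 RNAi difference was 1.68 ± 0.17 (limma adjusted p = 1.8e-05), and its second probe set gave -0.14 for smo-1 RNAi and 0.85 for sdc-2(y93)+RNAi. The other neuronal gene called higher was zig-12, of the immunoglobulin superfamily (0.61 ± 0.13, limma adjusted p = 0.0028).

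Other neuronal genes were called lower. The collagen-binding receptor tyrosine kinase gene ddr-1, which acts in axon guidance, had the lowest sdc-2 difference of the 201 genes. It gave 7.73, 8.15 and 7.99 in WT, 7.24, 6.93 and 6.82 in smo-1 RNAi and 6.99, 6.82 and 6.75 in sdc-2(y93)+RNAi embryos. Both groups lay below WT, by -0.96 ± 0.14 in smo-1 RNAi (log2, SE, limma adjusted p = 0.00024) and -1.10 in sdc-2(y93)+RNAi embryos. The gene swip-10, which acts in glia to limit dopamine signalling, fell by 1.16 ± 0.12 with smo-1 RNAi (limma adjusted p = 2.5e-05), and zig-6 had a difference of -0.38 ± 0.09 (limma adjusted p = 0.0077), a call that was lost on the centred scale. For the LIM homeobox gene lim-4 the difference was -0.37 ± 0.11 (limma adjusted p = 0.019), and the call was lost without WT replicate 2 or 3 or smo-1 RNAi replicate 3 and on the centred scale. The transcription factors ttx-3 and lin-32, the guidance cue slt-1 and the ciliary transport gene osm-1 passed in neither direction.

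Of 5 signalling genes, 2 were lower and 1 higher in smo-1 RNAi embryos. The gene vhl-1, whose product marks the hypoxia factor HIF-1 for destruction, gave 8.46, 8.72 and 8.69 in WT, 7.30, 7.18 and 7.24 in smo-1 RNAi and 7.96, 7.75 and 7.99 in sdc-2(y93)+RNAi embryos. Every array of both groups was below every WT array. The fall of vhl-1 was -1.39 ± 0.10 in smo-1 RNAi embryos (log2, SE, limma adjusted p = 2.3e-06), and the sdc-2 difference was -0.73. The kinase gene mbk-1 fell by 0.75 ± 0.11 in smo-1 RNAi embryos (limma adjusted p = 0.00031) and differed by -0.34 in sdc-2(y93)+RNAi embryos, also below WT on all arrays. The Wnt receptor gene lin-18, which lay at the limit of the rule with equal means of 7.83 in WT and sdc-2(y93)+RNAi embryos, rose by 0.64 ± 0.09 with smo-1 RNAi (limma adjusted p = 0.0003). The polarity gene lgl-1 and the arrestin gene arr-1 did not pass.

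Among genes of translation, ife-2 and ife-4, which encode cap-binding proteins of the eIF4E family, had smo-1 RNAi differences of -0.90 ± 0.12 (log2, SE, limma adjusted p = 0.00011) and -0.51 ± 0.09 (limma adjusted p = 0.0013). The call of ife-4 was lost on the centred scale (limma adjusted p = 0.055). The ribosomal protein gene rpl-23A.1 differed by 0.26 ± 0.09 (limma adjusted p = 0.039), a call that was lost without any 1 of the WT arrays and without smo-1 RNAi replicate 2 or 3. All 3 genes overlapped with WT in sdc-2(y93)+RNAi embryos, with differences of -0.13, -0.14 and -0.01.

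The largest rise and the largest fall in smo-1 RNAi embryos were found in genes outside these groups. The gene abu-10, for a glutamine- and asparagine-rich protein of the pharyngeal cuticle, gave 8.83, 8.82 and 8.01 in WT, 11.71, 11.81 and 11.67 in smo-1 RNAi and 7.81, 8.60 and 8.22 in sdc-2(y93)+RNAi embryos. The smo-1 RNAi arrays were 9.03-fold above WT (3.18 ± 0.23, log2, SE, limma adjusted p = 2e-06), and the other groups overlapped. A second, dim probe set for abu-10, at 5.02 in WT, gave 0.036 for smo-1 RNAi and 0.064 for sdc-2(y93)+RNAi embryos. The uncharacterised gene F53A9.9 gave 7.34, 7.33 and 7.39 in WT, 9.69, 10.40 and 10.12 in smo-1 RNAi and 7.30, 7.35 and 7.31 in sdc-2(y93)+RNAi embryos, with the same order and a 6.57-fold rise (limma adjusted p = 2.4e-07). Further rises of 2.16, 1.83, 1.74 and 1.60 (log2) were called for F09E10.7, ZK662.2, C42D8.1 and H11L12.1, whose sdc-2 differences lay between -0.16 and -0.01. The non-coding RNA gene C30E1.9 had the lowest smo-1 RNAi difference. It gave 9.28, 9.84 and 9.04 in WT, 5.99, 6.11 and 6.21 in smo-1 RNAi and 8.36, 8.83 and 8.60 in sdc-2(y93)+RNAi embryos. The smo-1 RNAi mean was 9.73-fold below WT (limma adjusted p = 3.3e-07), and in sdc-2(y93)+RNAi embryos the arrays were also below WT, by -0.79.

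Among genes outside these groups, differences of -1.57 to -1.29 (log2) in smo-1 RNAi embryos were called for K08H2.4, R04D3.2, glit-1, T24C12.3 and sto-1. The grouped genes vhl-1 and dpy-3, given above, lay in the same range. The gene glit-1, for a neuroligin-like protein related to Drosophila Gliotactin, gave 10.18, 10.00 and 10.39 in WT, 8.81, 8.91 and 8.78 in smo-1 RNAi and 9.94, 9.49 and 9.84 in sdc-2(y93)+RNAi embryos, below WT in both groups. The stomatin gene sto-1 gave 11.44, 11.23 and 11.50 in WT, 10.21, 10.09 and 10.00 in smo-1 RNAi and 11.44, 11.27 and 11.28 in sdc-2(y93)+RNAi embryos, below WT in the former and overlapping with it in the latter. The cathepsin B-like protease gene cpr-6 of the intestine rose by 0.44 ± 0.11 with smo-1 RNAi (log2, SE, limma adjusted p = 0.0062) and overlapped with WT in sdc-2(y93)+RNAi embryos.

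Second probe sets often disagreed with the one the rule used. For 38 of the 201 genes the array holds 42 further probe sets, and 25 of these were above 0 in the sdc-2 contrast. Of the 27 with a WT mean of 7.0 or more, 14 were above 0 and 13 at or below it. Among all X-linked genes with this signal, 17.3% were at or below 0 on the probe set used. Whether the further probe sets of members exceed that share was not tested. For his-24 the second probe set gave 12.85, 12.61 and 12.71 in WT, 12.83, 12.54 and 12.50 in smo-1 RNAi and 13.08, 13.68 and 13.28 in sdc-2(y93)+RNAi embryos. It was thus above WT by 0.62 in sdc-2(y93)+RNAi embryos, where the brighter probe set was below by -0.54. For pdi-2 the second probe set gave 10.12, 9.84 and 9.82 in WT, 10.12, 10.14 and 10.08 in smo-1 RNAi and 10.12, 11.03 and 10.37 in sdc-2(y93)+RNAi embryos. The sdc-2 difference of pdi-2 was 0.58 on this probe set against -0.50 on the brighter one, and the smo-1 RNAi difference was 0.19 against -0.89. For these genes the second probe set is of the kind designed for 1 transcript, and the brighter one can bind related transcripts.

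For sdc-1 the second probe set gave an sdc-2 difference of 0.60 against -0.28, for calu-1 0.31 against -0.15 and for F08G12.1 0.90 against -0.12. The demethylase-family gene jmjd-3.3 had a pair of dim further probe sets at 1.98 and 0.80, against -0.04. For sdc-2 both probe sets were below WT in sdc-2(y93)+RNAi embryos, the second by -1.38. The second probe set gave 9.13, 8.92 and 9.05 in WT, 8.39, 8.26 and 8.42 in smo-1 RNAi and 7.59, 7.59 and 7.78 in sdc-2(y93)+RNAi embryos, so it was below WT in smo-1 RNAi embryos too, by -0.67. With the mean of all its probe sets, sdc-2 was called lower in smo-1 RNAi embryos (-0.40, limma adjusted p = 0.017). Which probe set follows the gene's messenger was not tested. The set of 201 genes is therefore a set of probe sets, and 77 of them (38.3%) are open to related transcripts by design, against 34.0% of the other X-linked genes and 39.9% of autosomal genes with this signal.

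**Figure D5:**
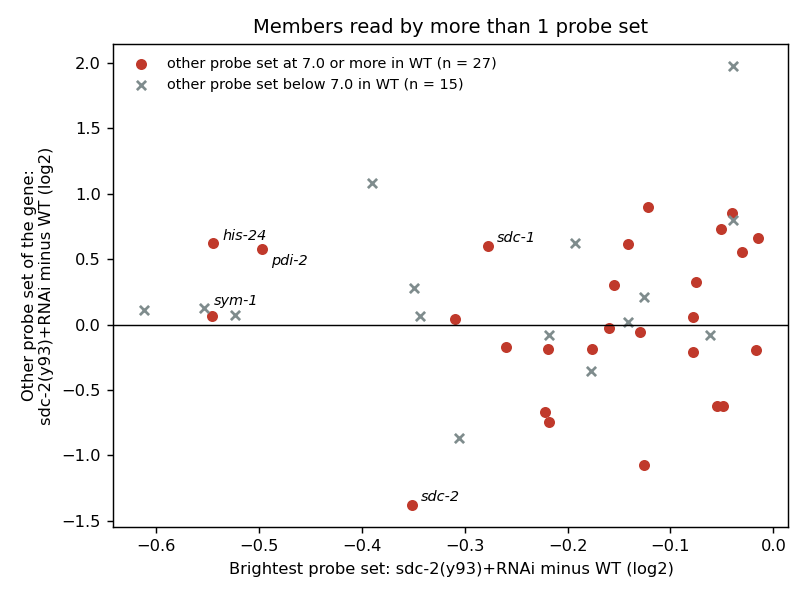
Each point is 1 of 42 further probe sets of 38 genes in the set. The x axis gives the sdc-2(y93)+RNAi mean minus WT mean (log2) of the probe set used by the rule, and the y axis the same difference for the further probe set. Of the 27 further probe sets with a WT mean of 7.0 or more (circles), 14 lie above 0, among them those of his-24, pdi-2 and sdc-1.

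Lists of genes known from tissues and processes placed few members. Of 292 symbols on 13 lists, 271 were measured and 56 were X-linked with a WT mean of 7.0 or more. Of these 56 genes, 14 (25%) belonged to the set, beside 17.3% of all X-linked genes with this signal. They were 2 of 2 dosage compensation genes, 3 of 10 body wall muscle genes (unc-27, tni-1 and sup-12), 3 of 8 epidermal genes (dpy-3, dpy-7 and sym-1), 2 of 10 neuronal genes (mec-7 and tba-9), 1 of 8 intestinal genes (cpr-6), 1 of 2 pharyngeal genes (abu-10) and 2 of 14 developmental regulators (lin-15B and lim-4). The dosage compensation genes were sdc-2, the target of the RNAi, and sdc-1, whose second probe set was above WT in sdc-2(y93)+RNAi embryos. Neither the 3 X-linked signal elements nor the 2 P granule genes with this signal were in the set. The other 7 X-linked muscle genes had sdc-2 differences from 0.076 for mup-2 and 0.083 for let-2 to 1.01 for tnt-2, and the other 5 X-linked epidermal genes with this signal from 0.20 for elt-3 to 1.17 for lon-2.

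Markers of differentiated tissues, autosomal genes included, were counted in smo-1 RNAi embryos, where 17.8% of all genes were higher and 22.2% lower. Of 23 measured intestinal genes 16 were higher and 2 lower, of 29 neuronal genes 19 were higher and 2 lower, of 28 muscle genes 12 were higher and 5 lower, and of 21 pharyngeal genes 12 were higher and 4 lower. Of 28 maternal genes 17 were lower and 3 higher, and of 20 early zygotic genes 9 were lower and none was higher. The mean signal of the intestinal list was 8.82 to 9.08 on the WT arrays, 10.04 to 10.06 on the smo-1 RNAi arrays and 9.14 to 9.17 on the sdc-2(y93)+RNAi arrays. The embryos were of mixed stages, and the part of a different mix of stages or tissues in the values of unc-27, mec-7, abu-10, cpr-6 and the other members named was not tested.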

How the data were processed

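The authors deposited log2 values. Per the submitters' processing notes, RMA in Affymetrix Expression Console made them, and the sources used here give no version. RMA equalises the distributions of arrays and hides any change shared by all transcripts. Sample titles gave the groups.

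Of 22625 probe sets, 77 are controls, 887 were listed with several genes, 895 had no entry in the platform annotation, and 20766 had 1 gene, of which 20701 were found in the RefSeq table of assembly WBcel235. That table gave symbols, chromosomes and gene order. The probe set brightest over 9 arrays stood for each of 17085 genes. Tests used limma 3.58.1 under R 4.3.3 (lmFit, eBayes, all arrays, 6 residual degrees of freedom, two-sided, Benjamini-Hochberg over all genes, 0.05). The steps were tested on simulated data.

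The members, lists and tests were chosen with earlier results of these data known. Genes named were, by rule, the 8 members with the lowest sdc-2 difference, the 8 brightest, the 8 highest and 8 lowest called in smo-1 RNAi embryos, those nearest the limits, those on the lists, families with at least 3 members, and comparison genes from the lists. The text prints most of them. Members in the functional groups, and second probe sets, were named after their values were seen. Alternatives were another summary over probe sets, only probe sets for 1 transcript, 2 other scalings, other variance models, array weights, a replicate block, the arrays compared alone, a filter on dim genes, an adjusted p of 0.01, other limits and leaving out each array. A planned promoter motif search was not run. Same-numbered arrays did not deviate together (correlations of -0.22 to 0.25).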

Additional observations from a re-analysis of the deposited data

Results flagged for a closer look

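Hybridisation control transcripts, which lie outside the comparisons above, were brighter on the sdc-2(y93)+RNAi arrays than on the WT arrays. The difference of group means was 1.945 (log2) for bioB, 3.556 for bioC, 6.13 for bioD and 7.829 for cre. On the WT and smo-1 RNAi arrays these probe sets lay near background, with bioB between 4.82 and 5.09. This difference between arrays cannot be told apart from the group. Its part in the values of the 201 X-linked genes was not tested.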

How the results depend on the processing

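Probe set, scale and limit moved the counts most. Using only probe sets for 1 transcript left 139 of the 201 genes measurable, with 21 higher, 56 lower and a median of -0.19 in smo-1 RNAi against WT embryos, 31 higher than sdc-2(y93)+RNAi, and pdi-2 reversed to 0.19 (limma adjusted p = 0.54). Centring on autosomal genes gave 55 higher, 58 lower, a median of -0.0054 and 69 genes under the rule, and over all genes turned 3034 higher and 3787 lower into 6671 and 2296. The rule took 88 genes at -0.2, 358 at 0.2 and, chosen after seeing the data, 83 at the autosomal median. An adjusted p of 0.01 left 36 lower than in sdc-2(y93)+RNAi embryos. Genes chosen without WT replicate 1 had a median of -0.17 against that array. Leaving out single arrays gave 28 to 35 higher and 78 to 96 lower than WT, 40 to 46 higher and 43 to 63 lower than sdc-2(y93)+RNAi, and 178 to 220 genes under the rule. The replicate number as a block gave 33 higher and 91 lower than WT, 48 higher and 58 lower than sdc-2(y93)+RNAi, and cost the call of rpl-23A.1 (limma adjusted p = 0.054). The cause of these shifts was not tested.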
